A study of Mus musculus with 2 samples.

Results

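The 10 genes described here encode integrin subunits and adhesion molecules of microglia and were chosen by symbol. They are the integrin alpha chains Itgam, Itga6, Itga9 and Itgav, the integrin beta chains Itgb1, Itgb2 and Itgb5, and the adhesion molecules Selplg, Icam1 and Cd47. They are 10 of 55450 genes in the deposited count tables. The study sequenced RNA of single brain microglia, the resident macrophages of the brain, from adult male C57BL/6J mice in an awake and an anesthetized state. The awake group was 3 mice given normal saline, and the anesthesia group was 3 mice given 100 mg/kg sodium pentobarbital, a barbiturate anesthetic. No transgene or mutant allele was named in either group. Cells positive for CD11b with low CD45 were sorted from digested brain and captured with a 10x Genomics 3' kit, which tags each RNA molecule near its 3' end with a unique molecular identifier (UMI). Each group has 1 library, and the sources used here do not say whether its 3 mice were pooled or how long the anesthetic acted. CD11b is the protein of Itgam, so the sort itself selects for cells that make it.

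Integrins are cell surface receptors built of an alpha and a beta chain that bind matrix proteins, complement fragments or adhesion molecules of other cells and tie them to the actin skeleton. In microglia they are known for adhesion of processes, uptake of complement-tagged material and activation of latent TGF-beta. Selplg is a sialomucin that binds selectins, Icam1 is a ligand of the leukocyte integrins that carry the Itgb2 chain, and Cd47 is the "do not eat me" ligand of the phagocyte receptor Sirpa.

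The promoters of 3 of the genes are shown because the results below turn on them: Icam1 was the gene that stood apart in 1 cluster of cells, Itgb1 had the highest and Itgb5 the lowest ratio between the libraries. Each sequence runs 5′ to 3′ from 250 bases before to 50 bases after the annotated start, from RefSeq on GRCm38.p6. The windows are chr9:21015690-21015989 for Icam1, chr8:128685404-128685703 for Itgb1 and chr16:33829415-33829714 for Itgb5, all on the plus strand. Capitals mark an NF-kB type motif (GGAANTTCC) in Icam1 and the Sp1 type motif (GGGCGG, on either strand) in Itgb1 and Itgb5.
Icam1: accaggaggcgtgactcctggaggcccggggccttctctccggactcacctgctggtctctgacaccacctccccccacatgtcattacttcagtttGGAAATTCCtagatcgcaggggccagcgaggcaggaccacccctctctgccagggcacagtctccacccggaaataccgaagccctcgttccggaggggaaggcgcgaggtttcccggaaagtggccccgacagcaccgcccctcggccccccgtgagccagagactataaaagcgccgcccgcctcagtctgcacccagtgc
Itgb1: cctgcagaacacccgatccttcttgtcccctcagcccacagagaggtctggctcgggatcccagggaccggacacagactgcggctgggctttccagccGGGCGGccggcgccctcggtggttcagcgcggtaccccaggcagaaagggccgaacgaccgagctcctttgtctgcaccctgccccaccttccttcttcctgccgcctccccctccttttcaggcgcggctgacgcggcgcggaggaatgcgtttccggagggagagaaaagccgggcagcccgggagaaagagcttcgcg
Itgb5: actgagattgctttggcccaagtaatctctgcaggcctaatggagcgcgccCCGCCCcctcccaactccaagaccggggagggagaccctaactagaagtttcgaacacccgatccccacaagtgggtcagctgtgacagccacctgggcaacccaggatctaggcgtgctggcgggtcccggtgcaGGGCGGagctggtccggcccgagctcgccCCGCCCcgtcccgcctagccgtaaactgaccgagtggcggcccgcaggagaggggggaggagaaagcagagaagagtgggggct
The NF-kB type motif was found 1 time in the Icam1 window and in 0.928% of 32851 RefSeq mouse promoter windows. The Sp1 type motif was found 1 time in the Itgb1 window, 3 times in the Itgb5 window and in 35.7% of all windows. It was also found 2 times in the Icam1 window, where it is left in lower case. The windows not shown held 3 (Cd47), 1 (Itgam), 1 (Itgav) and 0 (Itga9) matches to it. A PU.1 type motif (GAGGAAGT, found in 3.20% of windows) had 1 match in the Itgav window and 0 in the Itgam window. Motifs were searched on both strands, the motifs do not contain each other, and a match is a description of letters, not of binding. Of the 10 genes, 7 had an entry in the promoter table.

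The awake library held 53262885 UMIs in 8600 barcodes (median 5883 UMIs) and the anesthesia library 61139016 UMIs in 9412 barcodes (median 5347). After filters on genes, UMIs and mitochondrial share, 8223 and 8944 cells were kept. The median mitochondrial share was 1.45% and 2.26%. The libraries shared 14 barcodes. Microglia-like cells were 7526 awake (91.5%) and 8471 anesthesia cells (94.7%), and the microglial markers P2ry12 (1802 and 1699 counts per 1000000 UMIs, CPM) and Tmem119 (1481 and 1137 CPM) were high in them. Most awake microglia-like cells fell in clusters 0 and 1 (3574 and 3190 cells) and most anesthesia cells in clusters 2, 3 and 4 (3109, 2941 and 1633 cells). A cluster held mostly by 1 library may be that library and not a cell state. Endothelial-like cells numbered 113 awake and 123 anesthesia, and border-associated macrophage-like cells 49 and 42.

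Levels are CPM of a cell class, which in this 3' assay count molecules and are not divided by transcript length. All intervals are 95% and hold the counting error alone. As each group is 1 library, no difference between groups was tested, and the group cannot be told apart from its library and handling. The words higher and lower describe these 2 libraries.

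Selplg was the most abundant of the 10 genes in microglia-like cells, at 1975 CPM awake and 1621 CPM anesthesia, where it ranked 50 and 65 among all genes. Icam1 (1199 and 1114 CPM) and Itgb5 (1010 and 713 CPM) followed, then Itgam (430 and 521 CPM). The other 6 genes lay between 46.0 CPM (Itga9) and 214 CPM (Itgb2) in the awake library and between 47.2 CPM (Itga9) and 221 CPM (Itgb1) in the anesthesia library. Itgb1 passed Itgb2 and Itga6 in order between the libraries. No neighbours in either order had overlapping counting intervals.

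Between the libraries, all 10 genes differed by less than 1.5-fold with total-count scaling. The count was 0 of 10 for at least 1.5-fold higher in anesthesia, against 13.3% of 11422 measured genes, and 0 of 10 for at least 1.5-fold lower, against 11.9%. Of all measured genes past 1.5-fold, 52.9% were higher with total-count scaling and 40.6% with trimmed-mean (TMM) scaling. Under TMM scaling Itgb5 passed the 1.5-fold limit (log2 ratio -0.59), as 1 of 1777 lower genes among the 11422 measured. With the limit set at a level 25% above that of the other library, Itgb1 and Itgav were higher (25.6% of measured genes) and Itgb5 was lower (26.1%). The median log2 ratio of the 10 genes was -0.09, against -0.02 for all measured genes. The members ran in both directions, with the widest contrast between Itgb1 and Itgb5.

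**Figure D1:**
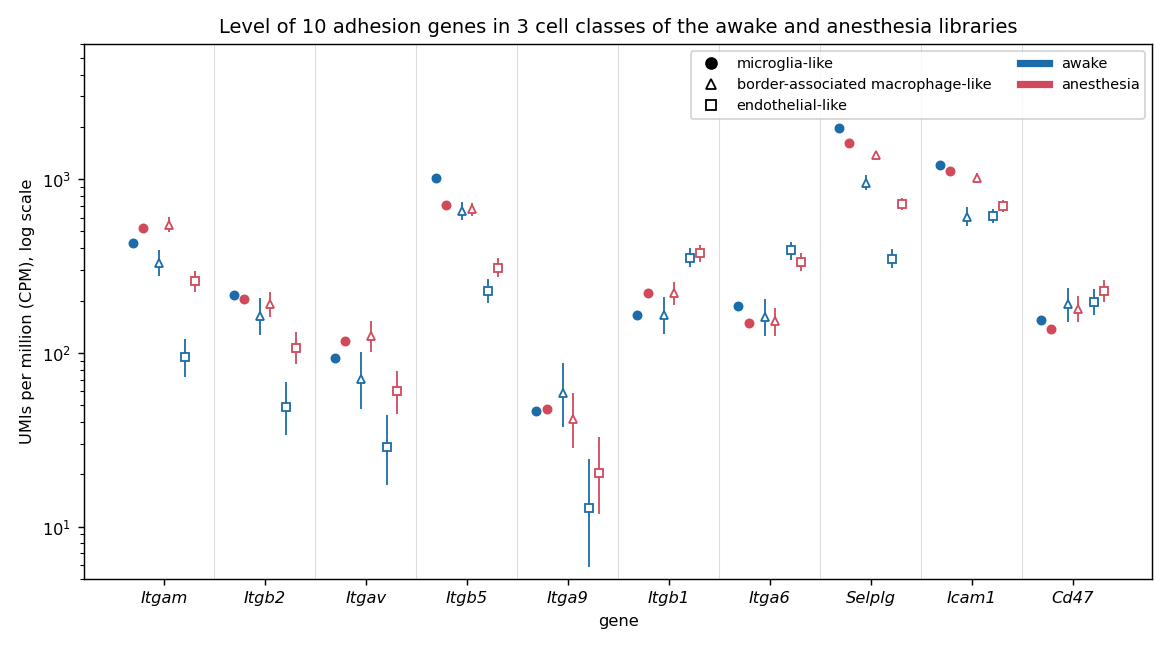
Level of each gene in CPM (log axis) in microglia-like (filled circles), border-associated macrophage-like (triangles) and endothelial-like cells (squares) of the awake (blue) and anesthesia (red) library, 1 library each, with 95% counting intervals as bars. Selplg, Icam1 and Itgb5 are the highest in microglia-like cells, and Itgb1, Itga6 and Cd47 are the genes whose endothelial-like level lies above the microglia-like one.

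The leukocyte integrin is built of Itgam, its alpha chain, and Itgb2, the beta chain shared by the leukocyte integrins, and it binds complement-tagged particles and Icam1. Itgam (ENSMUSG00000030786, GRCm38 chr7:128062640-128118491, plus strand) stood at 430 CPM awake and 521 CPM anesthesia, a log2 ratio of 0.28 (0.25 to 0.30). Itgb2 (ENSMUSG00000000290, chr10:77530252-77565708, plus strand) stood at 214 and 204 CPM, a log2 ratio of -0.07 (-0.11 to -0.03). The alpha chain was thus higher and the beta chain slightly lower in anesthesia, and the difference for Itgb2 turned to 0.05 when a trend over GC content and transcript length was removed. With every cell thinned to 2000 UMIs, 55.3% of awake and 60.8% of anesthesia microglia-like cells held an Itgam UMI, and 33.8% and 32.4% an Itgb2 UMI. Without thinning, the Itgam shares were 87.7% and 87.0%, in cells with a median of 5953.5 and 5434 UMIs. Thinning dropped cells under 2000 UMIs, which were 187 awake and 306 anesthesia microglia-like cells and 7 and 11 endothelial-like ones. In endothelial-like cells (median 5507 and 4535 UMIs), which should lack this integrin, the thinned Itgam shares were 8.49% and 25.9%. Exons of Itgam overlap the predicted gene Gm49368 on the same strand, which itself had 99 and 155 UMIs.

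The pair Itgav and Itgb5 forms a receptor for vitronectin that takes part in uptake of dying cells, and Itgb5 is one of the genes by which mouse microglia are recognised. The 2 chains differed in opposite directions. Itgb5 (ENSMUSG00000022817, chr16:33829665-33949338, plus strand) stood at 1010 CPM awake and 713 CPM anesthesia, a log2 ratio of -0.50 (-0.52 to -0.48), the lowest of the 10. The thinned share of cells with an Itgb5 UMI was 85.4% awake and 73.8% anesthesia. Itgav (ENSMUSG00000027087, chr2:83724397-83806916, plus strand) stood at 93.4 and 118 CPM, a log2 ratio of 0.33 (0.28 to 0.39). Its thinned shares were 16.2% and 19.6%. The Itgav value moved with the processing and was 0.10 when the libraries were compared within clusters and 0.09 after removal of the GC and length trend. The large clusters were each held mostly by 1 library, such as cluster 0 with 3574 awake and 96 anesthesia cells. The within-cluster value thus rests on few cells of the other library in each of these. An antisense predicted gene, Gm13684, overlaps exons of Itgav and had 81 and 110 UMIs.

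Itgb1 is the most widely used beta chain and pairs with Itga6 as a laminin receptor, with Itga9 as a receptor for tenascin and osteopontin, and with Itgav. Itgb1 (ENSMUSG00000025809, chr8:128685654-128733200, plus strand) stood at 165 CPM awake and 221 CPM anesthesia, a log2 ratio of 0.43 (0.38 to 0.47), the highest of the 10. Itga6 (ENSMUSG00000027111, chr2:71745616-71858416, plus strand) stood at 186 and 149 CPM, a log2 ratio of -0.32 (-0.36 to -0.28). Itga9 (ENSMUSG00000039115, chr9:118606690-118901003, plus strand) was the lowest of the 10, at 46.0 and 47.2 CPM, a log2 ratio of 0.04 (-0.04 to 0.12). Itgb1 and Itga6 thus differed in opposite directions, while the interval of Itga9 held no difference. The thinned shares of cells went the same way for Itgb1 (27.7% and 34.7%) and Itga6 (31.0% and 24.2%). For Itga9 they were 8.86% (8.22 to 9.53) and 8.81% (8.20 to 9.44), with overlapping intervals. Each of the 14 alternatives kept the direction of Itgb1 (0.34 to 0.44) and Itga6 (-0.44 to -0.30), and 11 of 14 that of Itga9.

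The 3 adhesion molecules that are not integrins were lower in the anesthesia library, except Icam1 when the GC and length trend was removed. Selplg (ENSMUSG00000048163, chr5:113818536-113832644, minus strand) had a log2 ratio of -0.28 (-0.30 to -0.27). Icam1 (ENSMUSG00000037405, chr9:21015985-21028817, plus strand) had a log2 ratio of -0.11 (-0.12 to -0.09), which became 0.06 with that trend removed. Cd47 (ENSMUSG00000055447, chr16:49800533-49915010, plus strand) stood at 154 CPM awake and 137 CPM anesthesia, a log2 ratio of -0.16 (-0.21 to -0.12). Nearly every cell held Selplg: the thinned shares were 96.4% and 94.3%. For Icam1 they were 83.8% (83.0 to 84.7) and 84.4% (83.6 to 85.2), opposite in sign to its level but with overlapping intervals. For Cd47 they were 26.8% and 23.9%. An antisense predicted gene, Gm47079, overlaps exons of Icam1 and had 104 and 184 UMIs.

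**Figure D2:**
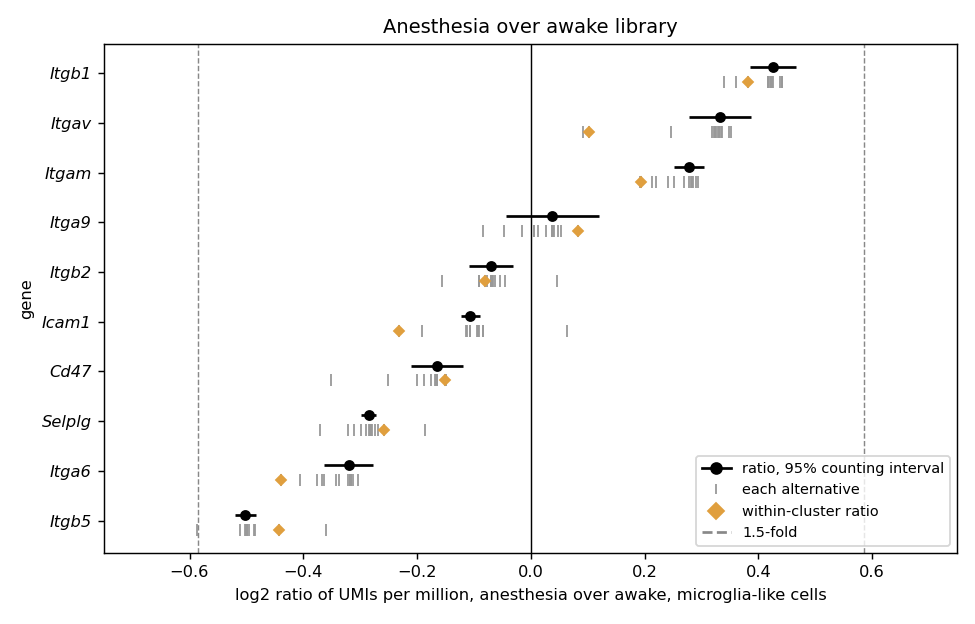
Log2 ratio of CPM, anesthesia over awake library, in microglia-like cells for each gene (black points, bars 95% counting intervals), with each of 14 alternatives as grey ticks, the within-cluster ratio as a diamond and 1.5-fold as dashed lines. Itgb1, Itgav and Itgam lie to the right of 0 and Itgb5, Itga6, Selplg and Cd47 to the left under each alternative shown, while Itga9, Itgb2 and Icam1 cross it. The large clusters were each held mostly by 1 library, which limits the within-cluster ratio.

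The chains of one receptor were found in the same cells about as often as their separate shares give. At 2000 UMIs per cell, 18.4% of awake microglia-like cells held both Itgam and Itgb2, where the product of the 2 shares is 18.7%. In the anesthesia library the values were 20.2% and 19.7%. For Itgav with Itgb5 they were 14.0% and 13.9% awake, and 14.4% and 14.4% anesthesia. For Itga6 with Itgb1 they were 8.49% and 8.57% awake, and 7.97% and 8.41% anesthesia. Cells without a UMI of either chain made up 49.9% of awake and 49.0% of anesthesia cells for Itga6 with Itgb1, so the depth limits what such a comparison can show.

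Within each library the genes also varied between clusters of microglia-like cells. Over the 5 clusters of at least 100 cells in each library, the highest level was 1.19 to 1.73 times the lowest for Itgam, Itgb2 and Itgb1. Cd47 differed by 2.40 times in the awake library, the most of the 10 genes, and by 1.77 times in the anesthesia library, where Itgav differed most (1.79 times). The highest Cd47 level was in cluster 8 in both, at 272 and 224 CPM. That cluster (114 and 122 cells) is led by the interferon-response genes Ifit3, Irf7, Oasl2 and Usp18. Cluster 7 of the awake library (291 cells), led by Clec7a, Lpl, Cst7 and Apoe, genes known from disease-associated microglia, had the lowest Selplg (1204 CPM), Itgam (332 CPM) and Cd47 (113 CPM). In the anesthesia library the same cluster held 82 cells, with Selplg at 1048 CPM, Itgam at 347 CPM and Cd47 at 93.6 CPM. Icam1 differed between the 2 large awake clusters, with 1017 CPM in cluster 0 and 1382 CPM in cluster 1. Nfkbia, a target and inhibitor of NF-kB, stood in cluster 0 at 56.3% of its level in the other awake microglia-like cells, and Tnf at 47.7%. A link of Icam1 to these genes was not tested. The highest Icam1 level was 1.46 times the lowest awake and 1.21 times in anesthesia, where cluster 3, led by genes such as Tnf, had 1181 CPM. Cluster 5 was shallow (median 2028 and 1847 UMIs). In the awake library it held the highest level of all integrin chains among the 10 genes and of Selplg. Selplg was at 2591 CPM and Itgb5 at 1357 CPM. In anesthesia it held the highest level of the same genes except Itgam. Icam1 was lowest there in both libraries (946 and 976 CPM). The ratios of 1.73 (Itgam, awake) and 1.79 (Itgav, anesthesia) thus have this shallow cluster as their highest. The part of its depth in these ratios was not tested.

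Icam1 stood apart from the other 9 genes in cluster 10, a cluster that was left unnamed. It held 99 awake and 47 anesthesia cells with a median of 2273 and 1975 UMIs and a median mitochondrial share of 5.22% and 5.50%. Icam1 was at 171 CPM there in the awake library, 14.3% (10.4 to 19.2) of its level in microglia-like cells, and at 84.3 CPM in the anesthesia library, 7.57% (3.27 to 14.9). The other 9 genes stood at 42.3% to 142% in the awake and 44.6% to 140% in the anesthesia library. Of these, Itgb5 was at 96.1% and 140%, and Itgam at 74.3% and 93.0%. Genes of early stimulation were low in the same cells, with Nfkbia at 17.5% and 7.22%, Tnf at 8.93% and 2.27%, Ccl4 at 10.8% and 4.87%, and Egr1 at 13.4% and 4.34%. Microglial genes were mixed, with C1qa at 125% and 154% and Cx3cr1 at 34.3% and 32.6%. The leading genes of cluster 10 were Nrgn, Pf4, Ctla2a and Gng11. Immediate early, NF-kB and cytokine genes and the 10 genes themselves were kept out of the clustering. The part of shallow depth and mitochondrial share in the low Icam1 value was not tested, nor was a link to the genes of early stimulation. The cluster was singled out after its values were seen.

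**Figure D3:**
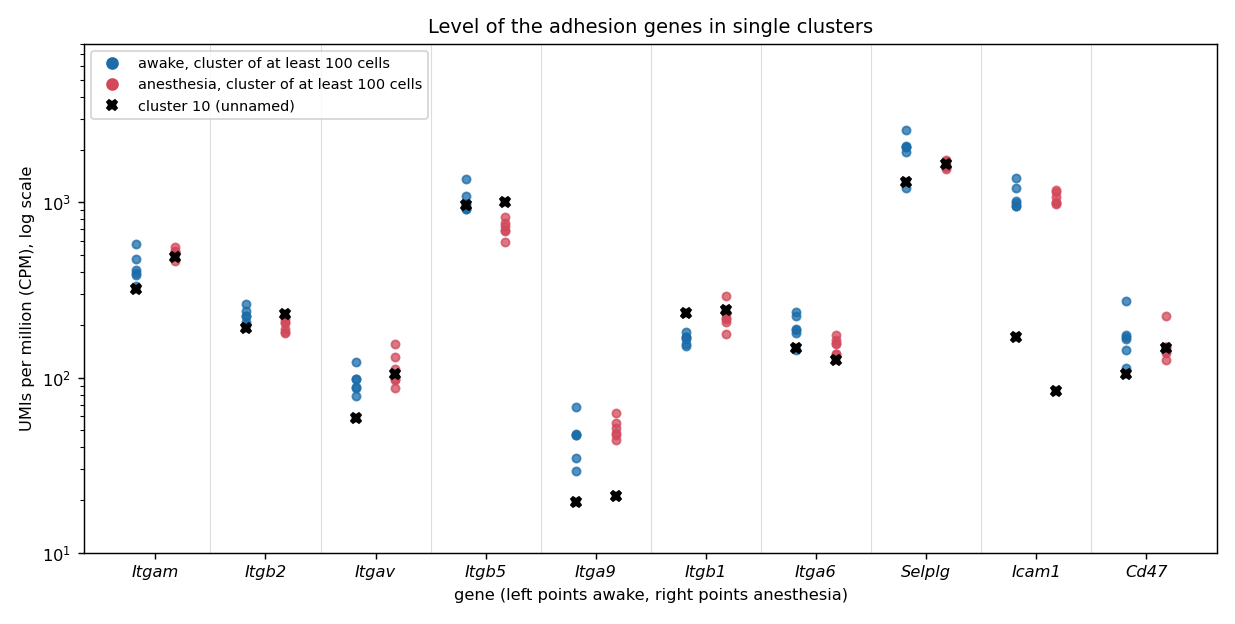
Level of each gene in CPM (log axis) in single microglia-like clusters of at least 100 cells of the awake (blue, left) and anesthesia (red, right) library, with the unnamed cluster 10 as crosses. The crosses lie within or near the spread of the clusters for most genes and well under it for Icam1.

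Endothelial cells line the vessels of the brain, and their integrins bind the laminin of the vessel wall. Some endothelial-like barcodes passed the sort, and their RNA was partly microglial: 10 microglial genes used as a reference (P2ry12, Tmem119, Fcrls, Gpr34, Siglech, Csf1r, C1qa, C1qb, Cx3cr1 and Olfml3) stood there at 15.4% to 20.2% of their microglia-like level awake and at 38.8% to 46.2% in anesthesia. A value in that range cannot be told apart from free or co-captured microglial RNA. By this measure 4 of the 10 genes stood above the reference with their whole interval in both libraries: Itgb1, Itga6, Icam1 and Cd47. The share of all genes that meet this rule was not computed, so the count describes these genes alone.

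Itgb1 was at 353 CPM (310 to 399) in awake and 376 CPM (335 to 420) in anesthesia endothelial-like cells, 214% and 170% of its microglia-like level. Itga6 was at 388 CPM (344 to 437) and 334 CPM (295 to 375), 209% and 224%. Both chains of the laminin receptor were thus higher in endothelial-like than in microglia-like cells of the same library. Cd47 was at 197 and 227 CPM, 128% and 165% of the microglia-like level. Icam1, which endothelium uses to hold leukocytes, was at 614 and 701 CPM, 51.2% (46.5 to 56.3) and 62.9% (57.9 to 68.2). With the median reference share subtracted and the rest rescaled to a whole profile, a calculation added after seeing the data, Icam1 was at 477 and 385 CPM, 39.8% and 34.5%. In the other direction, 10 endothelial markers such as Cldn5 and Flt1 stood in microglia-like cells at 0.118% to 0.447% (awake) and 0.155% to 0.497% (anesthesia) of their endothelial-like level, while the log2 ratio of microglia-like over endothelial-like level was -1.06 and -1.16 for Itga6 and -1.10 and -0.76 for Itgb1.

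The other 6 genes had intervals that reached the microglial reference. Itgam was at 94.2 and 258 CPM (21.9% and 49.5%), Itgb2 at 48.5 and 107 CPM (22.7% and 52.4%), and Selplg at 348 and 720 CPM (17.6% and 44.4%). Itgb5 was at 22.5% and 43.4%, Itgav at 30.6% and 51.0%, and Itga9 at 27.9% and 43.2%. For these genes no endothelial level could be separated from microglial RNA at this depth. Counted as they stand, 6 of the 10 genes were at least 2-fold higher in microglia-like than in endothelial-like cells of the awake library (16.3% of 8677 genes tested there) and 2 at least 2-fold lower (20.9%). In the anesthesia library the counts were 4 (9.82% of 8367 genes) and 1 (15%). With the reference share subtracted and the rest rescaled, 7 were at least 2-fold higher in each library, namely Icam1 and the 6 genes that reached the reference. For those 6 the call follows from the subtraction, which takes away most of their endothelial-like level, so it says nothing further of them. At least 2-fold lower were 2 in the awake library (Itgb1 and Itga6) and 3 in the anesthesia library (these and Cd47). Shares of all tested genes were not computed after subtraction, so these counts have no background to be read against. Itgb1 was then at 397 and 494 CPM in endothelial-like cells and Itga6 at 436 and 475 CPM, while the values of Itga9 in the anesthesia library and Selplg in the awake library fell below 0. Of 10 red cell markers, 9 are in the tables, and they summed to 14553 CPM in awake endothelial-like cells, with none at 0, and to 5767 CPM in anesthesia ones, with Slc4a1 at 0. Their part in these levels was not tested.

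**Figure D4:**
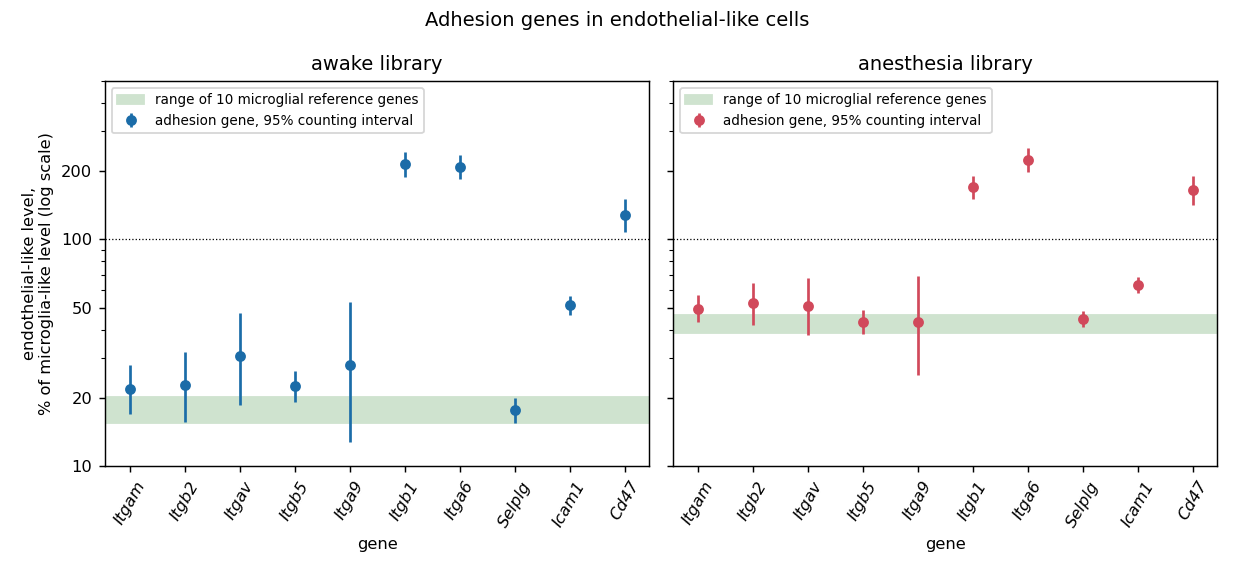
Level of each gene in endothelial-like cells as a percent of its microglia-like level in the same library (log axis, bars 95% counting intervals), with the range of 10 microglial reference genes as a band and equal levels as a dotted line. Itgb1, Itga6, Cd47 and Icam1 lie above the band in both libraries, and the other 6 genes reach it.

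Border-associated macrophages live at the meninges and around vessels and share most leukocyte integrins with microglia. The macrophage-like barcodes (clusters 12, 13 and 15, led by Ms4a7, F13a1, Pf4, Lyve1 and Cd163) held much microglial RNA: 5 genes taken as specific to microglia (P2ry12, Tmem119, Gpr34, Siglech and Olfml3) stood there at 50.3% to 59.7% of their microglia-like level awake and 81.4% to 86.8% in anesthesia. Cluster 13 held 29 of the awake and 4 of the anesthesia barcodes, and cluster 15 held 0 and 11. Their median depth was 7340 and 14229 UMIs. The 10 macrophage markers summed to 4604 CPM awake and 1498 CPM in anesthesia, and the 10 microglial markers to 12713 and 15876 CPM. In microglia-like cells the microglial markers summed to 20581 and 18399 CPM. The macrophage-like sets of the 2 libraries thus differ in make-up. The 10 neutrophil markers summed to 1806 CPM awake, with Ly6g, Ngp and Ltf at 0, and to 12380 CPM in anesthesia, with Retnlg and Mmp8 at 0. Barcodes with at least 10 UMIs of S100a8 and S100a9 were 1 of 49 awake and 2 of 42 anesthesia ones. Apart from the class comparison without such barcodes, the part of neutrophil RNA in these levels was not tested. Beside the microglial reference of these 5 genes, Selplg was at 954 CPM awake, 48.3% (43.6 to 53.4) of the microglia-like level. Icam1 was at 609 CPM, 50.8% (44.6 to 57.5). Itgam (76.5%), Itga6 (86.4%), Itgb1 (101%), Cd47 (123%) and Itga9 (127%) had intervals wholly above the reference. In the anesthesia library that held for Itgam (105%) and Cd47 (130%) alone. The share of all genes with intervals above this reference was not computed. Selplg was the only gene at least 2-fold higher in microglia-like than in macrophage-like cells of the awake library (4.31% of 7989 genes), and none was lower (5.88%). In the anesthesia library none was higher (0.999% of 7906 genes) and none lower (2.77%). Without 1 awake barcode rich in S100a8 and S100a9, 2 genes were at least 2-fold higher, and the share of all genes was not computed for that set.

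A further 22 awake barcodes were neutrophil-like, led by Camp, Ngp and S100a9, and 1 anesthesia barcode. In the awake ones Cd47 was at 439 CPM, Itgb2 at 287 CPM and Itgam at 422 CPM, and Itgb1 at 61.3 CPM. Itgb5 (177 CPM), Selplg (322 CPM) and Icam1 (268 CPM) were lower than in microglia-like cells. Microglial genes were found in these barcodes too, with P2ry12 at 374 CPM, Tmem119 at 277 CPM and C1qa at 1716 CPM. In awake microglia-like cells these stood at 1802, 1481 and 7413 CPM. The part of microglial RNA in the neutrophil-like levels was not tested. Of the named classes, this small set of neutrophil-like cells had most Itgb2 per UMI, while Selplg, Icam1 and Itgb5 were highest in microglia-like cells. The unnamed cells lay near the microglia-like level for Selplg (1989 CPM awake and 1592 CPM anesthesia) and Itgb5 (976 and 746 CPM).

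Of 20 other integrin subunits, 4 were measured in microglia-like cells with at least 200 UMIs over both libraries. Of the 4, 1 was at least 1.5-fold higher in anesthesia and 1 lower, against 13.3% and 11.9% of all measured genes. Itga5, the fibronectin receptor chain, was at 35.0 CPM awake and 34.4 CPM anesthesia, and Itgb3 at 16.4 and 16.7 CPM. Itgae was at 2.34 and 4.90 CPM, a log2 ratio of 1.07 (0.75 to 1.39), the only one at least 1.5-fold higher. Itgax, known from dendritic cells and activated microglia, was at 4.18 and 2.76 CPM, a log2 ratio of -0.60 (-0.91 to -0.29), the only one at least 1.5-fold lower. It lay just past that limit, and under 8 alternatives 0 subunits were at least 1.5-fold lower. Some of the subunits near 0 in microglia-like cells were found in other classes. Itga1, a collagen and laminin receptor chain, was at 317 and 257 CPM in endothelial-like cells and at 0.62 and 0.63 CPM in microglia-like cells. Itga4 was at 51.1 and 18.1 CPM in macrophage-like cells against 0.85 and 1.35 CPM. Itgb8 was at 31.1 and 79.4 CPM in choroid plexus or ependymal-like cells against 0.10 and 0.19 CPM, and Itgb2l at 216 CPM in awake neutrophil-like cells against 0.04 CPM.

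Integrins are switched on from inside the cell by talin and kindlin, which the GTPase Rap1 recruits, and pass signals through adaptor proteins. Of 34 such genes, 30 were measured, and the median over the list was a log2 ratio of 0.04. By at least 1.5-fold, 3 (10%) were higher and 1 (3.33%) lower, against 13.3% and 11.9% of all measured genes. Rasgrp2, an activator of Rap1, was at 1.74 CPM awake and 6.23 CPM anesthesia, a log2 ratio of 1.84 (1.49 to 2.20). Vcl, the actin linker vinculin, was at 7.91 and 15.7 CPM (log2 ratio 0.99), and Crk, an adaptor of focal adhesions, at 84.9 and 140 CPM (0.72). Itgb1bp1, which binds the tail of Itgb1 and competes with talin, was lower, at 25.8 and 15.01 CPM (-0.78). The talins had log2 ratios of 0.30 (Tln1) and -0.43 (Tln2), and Fermt3, the blood cell kindlin, one of -0.29. These 3 genes lie outside the naming rule and were named after their values were seen.

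Of 29 ligands and counter-receptors, 12 were measured, and the median over the list was -0.21 (log2). By at least 1.5-fold, 2 were higher and 2 lower (16.7% each), against 13.3% and 11.9% of all measured genes. Thbs1, a matrix ligand of Cd47 and integrins, was at 9.17 CPM awake and 21.1 CPM anesthesia (1.20), and Vcam1 at 6.09 and 10.7 CPM (0.82). Spp1, osteopontin, a ligand of the Itgav and Itga9 integrins, was at 5.16 and 2.21 CPM (-1.22). Nrros, which holds latent TGF-beta on the microglial surface, was at 165 and 110 CPM (-0.59). Tgfb1 itself was at 495 and 415 CPM (-0.25), and Sirpa, the receptor of Cd47, at 753 and 550 CPM (-0.46). Tgfb1 and Sirpa lie outside the naming rule and were named after their values were seen. Of 21 other adhesion molecules, 17 were measured, with a median of -0.04. By at least 1.5-fold, 0 were higher and 2 (11.8%) lower, against 13.3% and 11.9% of all measured genes. The lower ones were Cd48 (71.5 and 45.4 CPM, -0.65) and Bsg, basigin (441 and 292 CPM, -0.60), followed by the tetraspanin Cd151 (-0.52), while Cd164 was at 374 and 486 CPM (0.38).

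Across the 9 sums of a cell class in a library with at least 20 cells, the genes whose log2 level ran most like Itgam were Arhgap30 (Pearson r 0.98), Phkg2 (0.98) and Ptprc (0.98), which encodes CD45. For Itga6 they were Sar1a (0.99), Uap1 (0.99) and Arhgap31 (0.98). Arhgap31 was at 334 and 259 CPM in endothelial-like and 68.1 and 68.7 CPM in microglia-like cells. These r values are descriptions: classes of 1 library share its depth and free RNA.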

How the data were processed

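The deposited files are whole-number UMI counts per gene and barcode for 2 libraries, not normalized by the authors, per the file headers and values. Per the submitters' processing notes, reads were counted with Cell Ranger 3.1.0 on GRCm38, while the file headers name Cell Ranger 4.0.0; the difference was not settled. The lowest barcode held 501 UMIs. All 55450 gene identifiers matched GENCODE M21, from which positions, GC content and transcript length were taken.

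The cell filter asked for 500 genes, 1000 UMIs and no more than 10% mitochondrial UMIs. Cells were clustered with scanpy 1.11.5 and leidenalg 0.10.2 (2000 variable genes, 30 components, 15 neighbours, resolution 0.6), with the 10 genes, all integrin subunits and stimulation genes left out. Clusters were named from 10 markers for each of 16 classes. Microglia-like clusters needed 7 markers in 25% of cells, a limit set after seeing the data, and clusters with macrophage and neutrophil markers were split further. Scrublet called 0 awake and 1 anesthesia doublets, so the caller did not work and no cell was removed.

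Counts were summed per class and library. Ratios have exact conditional binomial and levels exact Poisson 95% intervals, and shares of cells are counted after thinning to 2000 UMIs. A gene was measured in the comparison of libraries from 200 UMIs upward (both libraries together), and tested in the comparison of classes from a mean of 10 CPM over both classes. Alternatives changed the scaling, cell filter, depth, clustering and thresholds. The functions were tested on simulated data. The 10 genes, the lists and the rule for named genes (all 10, every measured integrin subunit, and the 4 measured genes of each other list with the largest absolute log2 ratio) were chosen with earlier results of these data known. The values of 1 marker gene are not reported here.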

Additional observations from a re-analysis of the deposited data

Results flagged for a closer look

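For 4 genes the ratio between the libraries had the opposite sign in another cell class than in microglia-like cells, with both counting intervals clear of 0. The share of all measured genes that meet this rule was not computed, so the count describes these genes alone. None of these differences between classes was tested, since each class is 1 sum per library. In endothelial-like cells the log2 ratio of anesthesia over awake was 1.14 (0.55 to 1.75) for Itgb2, against -0.07 in microglia-like cells. It was 0.45 (0.16 to 0.74) for Itgb5 against -0.50, 1.05 (0.83 to 1.27) for Selplg against -0.28, and 0.19 (0.01 to 0.37) for Icam1 against -0.11. The 10 microglial reference genes were higher as well in anesthesia endothelial-like cells, 10 of 10 of them, with log2 ratios of 0.35 to 1.40 and a median of 0.95. With the median reference share subtracted and the rest rescaled, Itgb5 was at 44.4 CPM awake and 1.09 CPM anesthesia there. Icam1 was then at 477 and 385 CPM, so both were lower in anesthesia, as in microglia-like cells. Itgb2 (9.96 and 32.7 CPM) and Selplg (-31.1 and 30.9 CPM) stayed higher in anesthesia. The part of microglial RNA in these 4 ratios was not tested. In border-associated macrophage-like cells the log2 ratio was 0.52 (0.35 to 0.69) for Selplg and 0.74 (0.53 to 0.95) for Icam1. Of the 10 reference genes, 6 were higher in anesthesia there, with log2 ratios of -0.42 to 0.85 and a median of 0.18. The 5 of these taken as specific to microglia stood at 50.3% to 59.7% of their microglia-like level awake and 81.4% to 86.8% in anesthesia. Selplg stood at 48.3% and 84.6%, and Icam1 at 50.8% and 91.3%. The part of microglial RNA in the Selplg and Icam1 ratios was not tested. The macrophage-like barcodes were 49 awake and 42 anesthesia, with a median depth of 7340 and 14229 UMIs. Their 10 macrophage markers summed to 4604 CPM awake and 1498 CPM in anesthesia. The part of this difference in the ratios was not tested.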

How the results depend on the processing

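No paired analysis was possible because each group has 1 library, and for the same reason no library could be left out. Removal of the trend over GC content and length (below: GC removal) changed the sign of Itgb2 (to 0.047) and Icam1 (to 0.064); without thinning, the Itgam share differed by -0.74 percentage points. Under TMM scaling 1 member was at least 1.5-fold lower (1777 of 11422 measured genes). With a limit of 25% in place of 1.5-fold, 2 were higher (25.6% of measured genes) and 1 lower (26.1%). Of the other integrin subunits, 0 were lower (1, Itgax, as reported) without cells over 10000 UMIs, in all cells, in thinned cells, after GC removal, with per-cell means, without the shallowest cluster (an alternative chosen after seeing the data), at resolution 1.0 and with integrins left in the clustering; 6 were higher with a minimum of 50 UMIs, and 9 were higher and 3 lower with 1 UMI in each library. Of the adaptors 2 were lower after GC removal. Of the ligands 1 was higher within clusters, 4 were lower in all cells, 1 under median-ratio scaling, 1 after GC removal and 4 with 50 UMIs, and 4 were higher and 5 lower with 1 UMI in each library. Of the other adhesion molecules 1 was higher and 4 lower in all cells, 1 was lower under median-ratio scaling and 1 after GC removal, and 2 were higher with 50 UMIs and 2 with 1 UMI. Against endothelial-like cells, 7 members were at least 2-fold higher in anesthesia with free RNA subtracted, also when the rest was rescaled (chosen after seeing the data), and without cells over 10000 UMIs. With subtraction, the call follows from the subtraction itself for each of the 7 except Icam1, since these genes reached the microglial reference. Without rescaling 0 were lower in either library, a count that says nothing of these genes since subtraction alone can only lower the endothelial-like level; with rescaling 3 were lower in anesthesia. Against macrophage-like cells, 2 were higher in the awake library at resolution 1.0, without cells over 10000 UMIs and without barcodes rich in S100a8 and S100a9 (chosen after seeing the data), and 1 in anesthesia without cells over 10000 UMIs. Shares of all genes were not computed for these alternatives to the class comparisons. For the alternatives to the counts of the other lists they are not given here. Stated minimums set which genes could be counted. Otherwise the cause was not tested. Another 247 counts and medians kept within 1.5 times or their spread. Of the values of single genes 256 stayed within their counting interval and 117 moved outside it. Values whose interval holds 0 also changed sign, among them Itga9, at -0.05 under TMM scaling and -0.08 after GC removal.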

Other observations

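Among the macrophage-like barcodes, cluster 13 (29 awake cells, led by Lyve1, F13a1, Cbr2 and Folr2) held less of 3 of the genes than the awake microglia-like cells did. Selplg was at 803 CPM (690 to 930), Icam1 at 444 CPM (361 to 541) and Itgam at 224 CPM (167 to 296). P2ry12, a microglial gene, was at 691 CPM (586 to 809) there. Cd47 was at 193 CPM (140 to 260) and Itgb1 at 179 CPM (128 to 244). Itga2b, the alpha chain of the platelet fibrinogen receptor, was at 24.8 CPM in the unnamed awake cells and 11.9 CPM in the unnamed anesthesia cells, against 0.62 and 1.02 CPM in microglia-like cells. These values were singled out after they were seen and have no replicate.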
